A study of Mus musculus with 8 samples.

Results

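The genes described here encode the nuclear subunits of the mitochondrial oxidative phosphorylation system, measured in mouse hippocampus after an antibody against CD4 or a control antibody. Members were taken by name: every gene whose array symbol begins with Nduf followed by a, b, c, s or v and a digit, with Uqcr, with Cox4 to Cox8 or with Atp5, and Sdha, Sdhb, Sdhc and Sdhd. The names gave 85 genes on 124 probes of the 55681 probes on the array. Of these genes, 84 were measured, with a probe that 4 or more of the 8 arrays placed well above background: 37 of complex I, 4 of complex II, 8 of complex III, 17 of complex IV and 18 of complex V. The single member below that limit was Cox8c, a testis isoform of cytochrome oxidase subunit VIII, which was well above background on 0 arrays. Cox7b2 was well above background on 7 arrays, 4 control and 3 anti-CD4, and the other 83 measured members on all 8. Across the series, 23595 rows (1 per gene, or per probe where no gene was named) were tested together.

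The rule selects names, not functions, and the names are those of the array's design. Atp5s and Atp5sl are now called Dmac2l and Dmac2, and Atp5c1-ps is a pseudogene of Atp5c1. These 3 are not subunits, and the counts below include them unless stated. Ndufa4, named as a complex I subunit, is now placed in cytochrome oxidase, and Cox7a2l is a factor of supercomplex assembly rather than a core subunit. Leaving out the 3 genes that are not subunits kept the count of members at an unadjusted p under 0.05 at 6, and counting Ndufa4 and Ndufa4l2 with complex IV changed that complex's median difference from 0.03 to 0.04.

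Oxidative phosphorylation moves electrons from NADH and succinate to oxygen and uses the resulting proton gradient to make ATP. Complex I (NADH dehydrogenase) and complex II (succinate dehydrogenase) take up the electrons, complex III passes them to cytochrome c, complex IV (cytochrome oxidase) reduces oxygen, and complex V is the ATP synthase. In brain, where firing and synaptic transmission use much ATP, neurons are rich in mitochondria. Complexes I, III, IV and V also hold subunits encoded in the mitochondrial genome, which the name rule does not cover.

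Total RNA of hippocampi from female C57BL6/J mice was hybridised to single-colour Agilent arrays. All mice were 8 weeks old and had spent 4 weeks in enriched housing, and each group, anti-CD4 or control antibody, held 4 samples. The labels call the treated samples CD4-depleted, but no measurement of T lymphocytes was analysed here, and they do not say whether each sample was a separate animal. The p-values therefore measure only sample-to-sample spread, which could be technical. The transcript of Cd4 itself, the co-receptor of helper T lymphocytes, stood at 2.03 ± 0.149 in controls and 2.05 ± 0.123 after anti-CD4 (log2 level, SD, n = 4). Of 8 fixed markers of T lymphocytes, 2 (Cd3e and Lck) passed the filter on dim probes.

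In what follows, a level is the log2 processed signal of a gene's brightest probe minus the 75th percentile of its array, and a difference is the anti-CD4 mean minus the control mean on that log2 scale. Levels of different probes depend on the probe and were not compared. The other scalings used below were median centring, quantile normalization, normexp and the authors' deposited table. Normexp here is that background correction of the mean spot signal followed by quantile normalization. It thus shares a step with quantile normalization alone and is not independent of it. Of the probes, 51.1% to 54.3% were well above background per array, and none was saturated. Outlier spots numbered 98 to 124 on control arrays and 127 to 179 on anti-CD4 arrays. Each group filled its own row of the slide, and effects of row and antibody cannot be told apart. In RNA of whole hippocampi, fewer cells of a type and less RNA per cell cannot be told apart either.

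Several lists of marker genes of other cell types differed between groups or arrays. Of 8 red blood cell markers, 6 were measured (Hba-a1, Hba-a2, Hbb-b2, Hbb-bs, Hbb-bt and Alas2). All 6 were higher after anti-CD4 at an unadjusted p under 0.05 in limma, where 6.17% of all rows were. The median difference was 0.51, and none passed the adjusted threshold. All 6 were also higher at that level under the 4 other scalings, where 12.8% to 16.4% of all rows stood at it in either direction. Their summed linear signal, in multiples of the array's 75th percentile, was 74.9 to 111 in controls and 116 to 136 after anti-CD4, without overlap. All 7 markers of thalamus and habenula, which adjoin the hippocampus, had positive differences under all 5 scalings. Of them, 2 (Zic1 and Rora) were higher at an unadjusted p under 0.05, where 6.17% of all rows were. The count was 1 with quantile normalization, with normexp and in the authors' deposited table. Dentate granule markers had a median difference of -0.38 and pyramidal neuron markers one of -0.16, with 2 of 8 positive in each list under all 5 scalings. At an unadjusted p under 0.05 in limma, 1 dentate marker was higher and 2 were lower, and 1 pyramidal marker was lower. Of all rows, 6.17% were higher and 6.83% lower. Summed signals overlapped, at 20.3 to 32.1 in controls and 17.6 to 26.4 after anti-CD4 for dentate markers. For pyramidal markers they were 134 to 160 and 127 to 148. Of 6 endothelial markers, 3 (Flt1, Esam and Pecam1) were higher at an unadjusted p under 0.05, where 6.17% of all rows were. The count was also 3 under each of the 4 other scalings. The list had 4 positive and 2 negative differences, with a median of 0.16. Its summed signal was 23.4 to 29.6 in controls and 24.5 to 30.4 after anti-CD4, with overlap. The part of these differences in the values of the oxidative phosphorylation genes was not tested.

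No member of the family passed an adjusted p of 0.05 in limma, where 0% of the 23595 rows did. The smallest adjusted p of a member was 0.331 (Uqcrc1), against 0.119 over all rows. At an unadjusted p under 0.05 stood 6 of 84 members (7.14%), against 13.0% of all rows. Of these, 4 were higher after anti-CD4, where 6.17% of rows were, and 2 were lower, where 6.83% of rows were. The 4 anti-CD4 values lay all above or all below the 4 control values for 7 members (8.33%, 4 higher and 3 lower), against 8.19% of all rows. The first share lay below that of the whole array and the second beside it.

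The differences of the members were small. Their median was 0.02, against 0.01 over all rows, and 51 were positive and 33 negative (60.7% positive, against 51.8% of all rows). The difference was smaller than 0.2 in either direction for 81 of 84 members and smaller than 0.1 for 60. The 3 larger ones were those of Cox8b, Cox6a2 and Uqcrc1. The median SD within groups was 0.087 for members and 0.144 for all rows. The 95% confidence interval of the difference lay within 0.5 of 0 for 80 members, the others being Cox6a2, Cox6b2, Cox7b2 and Cox8b, and within 1 for all but Cox8b. On arrays simulated from the observed spread of these 23595 rows, the same test of 4 against 4 called 82.4% of genes changed by 1 and 43.4% of those changed by 0.5. Each of 5 simulated sets held 100 changed rows per size, drawn from rows of any spread. The rows varied independently of each other, unlike rows that move together on real arrays, so the rates are not those of the members.

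**Figure D1:**
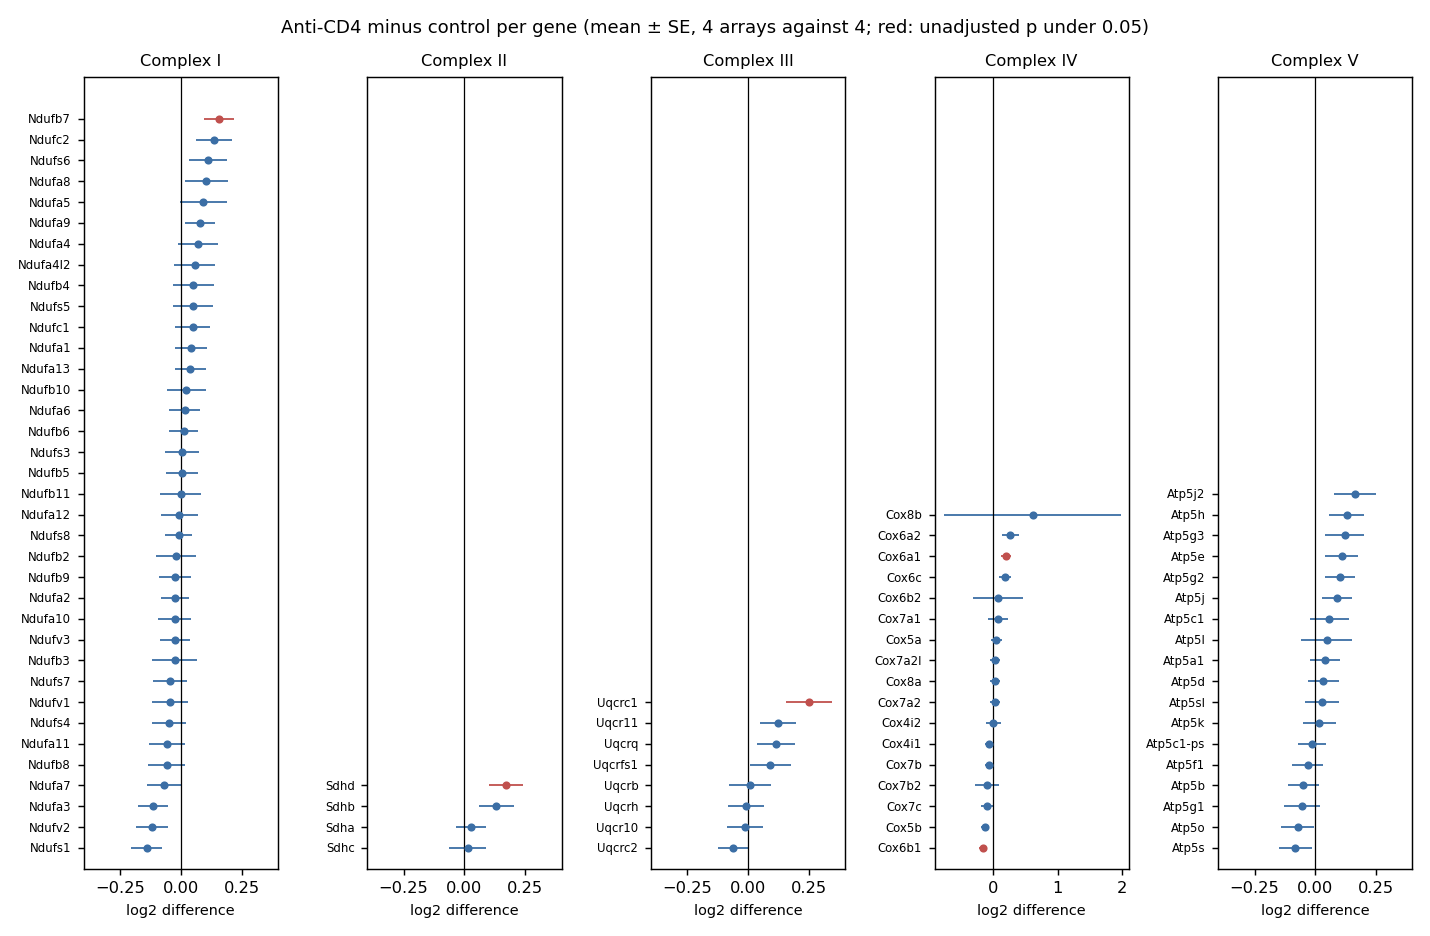
Difference of 83 of the 84 measured genes (x axis, log2, anti-CD4 minus control, bars ± SE from limma, 4 arrays against 4), sorted within complexes I to V; the x axis of complex IV is wider than the others because of Cox8b. Most points lie within 0.2 of 0, and the 5 red points, at an unadjusted p under 0.05, fall in complexes I to IV.

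Which direction prevailed depended on the scaling of the arrays. The share of positive members went from 51 of 84 to 63 with each array centred on its median, which moved the median of all rows to 0.04, and to 37 with quantile normalization, 41 with normexp and 40 in the authors' deposited table. The members at an unadjusted p under 0.05 split into 7 higher and 0 lower with median centring, 1 and 6 with quantile normalization, 5 and 5 with normexp, and 6 and 5 in the authors' deposited table. Of all rows, 12.8%, 14.1%, 16.0% and 16.4% stood at that level under these 4 scalings, with 2066 higher and 957 lower under median centring and 1594 and 1725 under quantile normalization. In the authors' deposited table Ndufs1 had the smallest adjusted p of a member, 0.147. None of the 6 members at an unadjusted p under 0.05 changed sign under any of the 20 alternative settings refitted over all rows. These members were picked by their p on the same arrays, and some settings, such as the replicate block, leave every difference unchanged. Over the settings, 0 to 6 of the 6 stayed at that level, 0 with the replicate number as a block and 1 to 3 with 1 array left out.

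The 7 core subunits of complex I measured here carry its flavin and iron-sulfur centres, and 6 of them had negative differences, with a median of -0.04. The count of negative ones was 5 with median centring, 7 with quantile normalization and 6 with normexp and in the authors' deposited table. Over all 37 members the complex had a median difference of 0.0006, with 19 positive and 18 negative (27 and 10 with median centring, 12 and 25 with quantile normalization). It held 2 members at an unadjusted p under 0.05.

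Ndufs1, the largest core subunit and a carrier of iron-sulfur clusters, stood at 5.22, 5.38, 5.25 and 5.20 in controls and at 5.14, 5.08, 5.13 and 5.13 after anti-CD4. These groups did not overlap. Its difference was -0.14 ± 0.063 (SE, adjusted p 0.396 in limma), and -0.21 both with normexp and in the authors' deposited table. Ndufv2, an iron-sulfur subunit of the NADH-binding arm, went from 5.22 ± 0.079 to 5.10 ± 0.051 (SD, n = 4), with overlapping groups. Its difference was -0.12, and -0.01 with normexp and in the authors' deposited table. Ndufv1, the flavin-bearing subunit that binds NADH, went from 6.10 ± 0.110 to 6.06 ± 0.062, a difference of -0.04 ± 0.074.

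Among the accessory subunits of complex I, which surround the core, Ndufb7 stood at 5.77, 5.67, 5.77 and 5.77 in controls and at 5.94, 5.83, 5.86 and 5.99 after anti-CD4. All 4 anti-CD4 values were above the controls, and the difference was 0.16 ± 0.063 (SE, adjusted p 0.352 in limma). Ndufc2 had a difference of 0.14 ± 0.074 with groups that overlapped, and Ndufa3 one of -0.11 ± 0.063. The second tested probe of Ndufa3 gave 0.11, the opposite sign. Ndufa4, now placed in complex IV, differed by 0.07 ± 0.083 and its homologue Ndufa4l2 by 0.06 ± 0.083, less than the spread between arrays.

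Complex II, which also runs a step of the tricarboxylic acid cycle, had 4 positive differences of 4, with a median of 0.08. The number was 3 of 4 with quantile normalization, with normexp and in the authors' deposited table. Sdhd, an anchor in the inner membrane, stood at 4.68, 4.78, 4.77 and 4.75 in controls and at 5.03, 4.78, 4.93 and 4.92 after anti-CD4. The groups did not overlap, although both replicates 2 stood at 4.78. The difference was 0.17 ± 0.070 (SE, adjusted p 0.353 in limma), a ratio of 1.13.

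Sdhb, the iron-sulfur subunit, went from 6.07 ± 0.117 to 6.20 ± 0.031 (SD, n = 4), with a second probe that gave the same sign. Sdha, the flavin subunit that oxidises succinate, went from 4.79 ± 0.077 to 4.82 ± 0.046. Sdhc, the other anchor, went from 3.68 ± 0.115 to 3.69 ± 0.079. These 3 differences, 0.13, 0.03 and 0.01, had overlapping groups.

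Complex III had 5 positive and 3 negative differences with a median of 0.05, and 4 of each with quantile normalization, with normexp and in the authors' deposited table. Uqcrc1, a core protein of the matrix side, stood at 4.00, 3.78, 4.07 and 4.23 in controls and at 4.21, 4.33, 4.27 and 4.27 after anti-CD4, so that control replicate 4 lay above 1 of the anti-CD4 values. The difference was 0.25 ± 0.095 (SE, adjusted p 0.331 in limma), a ratio of 1.19, and it was 0.17 without control replicate 2, the lowest array. The other core protein, Uqcrc2, gave -0.06 ± 0.064.

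The Rieske iron-sulfur protein Uqcrfs1 went from 4.90 ± 0.154 to 4.99 ± 0.044 (SD, n = 4), its lowest value being 4.68 in control replicate 1. Of the small subunits, Uqcr11 differed by 0.12 ± 0.075 and Uqcrq by 0.12 ± 0.079. Both groups of each overlapped. Uqcr10 and Uqcrb each had 3 probes, and in both genes the signs of the 3 differences were mixed.

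Complex IV has the most isoform pairs, in which a form found in most tissues is joined by one restricted to muscle, testis, lung or other tissues. The complex had 11 positive and 6 negative differences with a median of 0.03. Quantile normalization gave 9 and 8, and the median was 0.003 there, 0.03 with normexp and 0.02 in the authors' deposited table. Cox6a1, the widespread form of subunit VIa, stood at 8.53, 8.71, 8.78 and 8.67 in controls and at 8.998, 8.81, 8.84 and 8.84 after anti-CD4. All anti-CD4 values were above the controls. The difference was 0.20 ± 0.076 (SE, adjusted p 0.340 in limma), and it was 0.08 with normexp and 0.09 in the authors' deposited table.

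Cox6b1, the widespread form of subunit VIb, lay on the other side. It stood at 3.77, 3.81, 3.85 and 3.81 in controls and at 3.62, 3.59, 3.66 and 3.76 after anti-CD4, again without overlap. The difference was -0.15 ± 0.061 (SE, adjusted p 0.352 in limma). Cox6a2, the heart and skeletal muscle form of subunit VIa, went from 2.13 ± 0.263 to 2.40 ± 0.133 (SD, n = 4), with overlapping groups and a low value of 1.74 in control replicate 2.

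The remaining subunits of cytochrome oxidase overlapped between groups. Cox6c differed by 0.18 ± 0.092, Cox5a by 0.05 ± 0.084 and Cox5b, whose product binds zinc, by -0.12 ± 0.069. Cox4i1, the main form of the largest nuclear subunit, differed by -0.05 ± 0.067, and its counterpart in lung, Cox4i2, by 0.01 ± 0.121. Cox7a2 differed by 0.03 ± 0.081, its muscle form Cox7a1 by 0.07 ± 0.155 and Cox7a2l by 0.04 ± 0.074.

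Complex V had 12 positive and 6 negative differences with a median of 0.04, and 9 of each with quantile normalization and in the authors' deposited table. None of its 18 members stood at an unadjusted p under 0.05. The catalytic subunits overlapped between groups, with Atp5a1 (subunit alpha) at 6.64 ± 0.081 and 6.68 ± 0.024 and Atp5b (subunit beta) at 7.58 ± 0.088 and 7.53 ± 0.020 (control and anti-CD4, SD, n = 4). Atp5e, a small subunit of the central stalk, differed by 0.11 ± 0.067.

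The 3 genes Atp5g1, Atp5g2 and Atp5g3 encode the same mature subunit c, the proton-carrying ring, with different import sequences. Atp5g2 stood at 6.24, 6.21, 6.32 and 6.28 in controls and at 6.46, 6.33, 6.33 and 6.34 after anti-CD4. These groups did not overlap, the closest pair being 6.32 and 6.33, and the difference was 0.10 ± 0.061 (SE, adjusted p 0.508 in limma). An adjoining probe of Atp5g2 gave 0.23. Atp5g3 differed by 0.12 ± 0.080 and Atp5g1 by -0.06 ± 0.074, both with overlapping groups. Of the stalk and membrane subunits, Atp5h differed by 0.13 ± 0.073 and Atp5j2 by 0.16 ± 0.085.

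**Figure D2:**
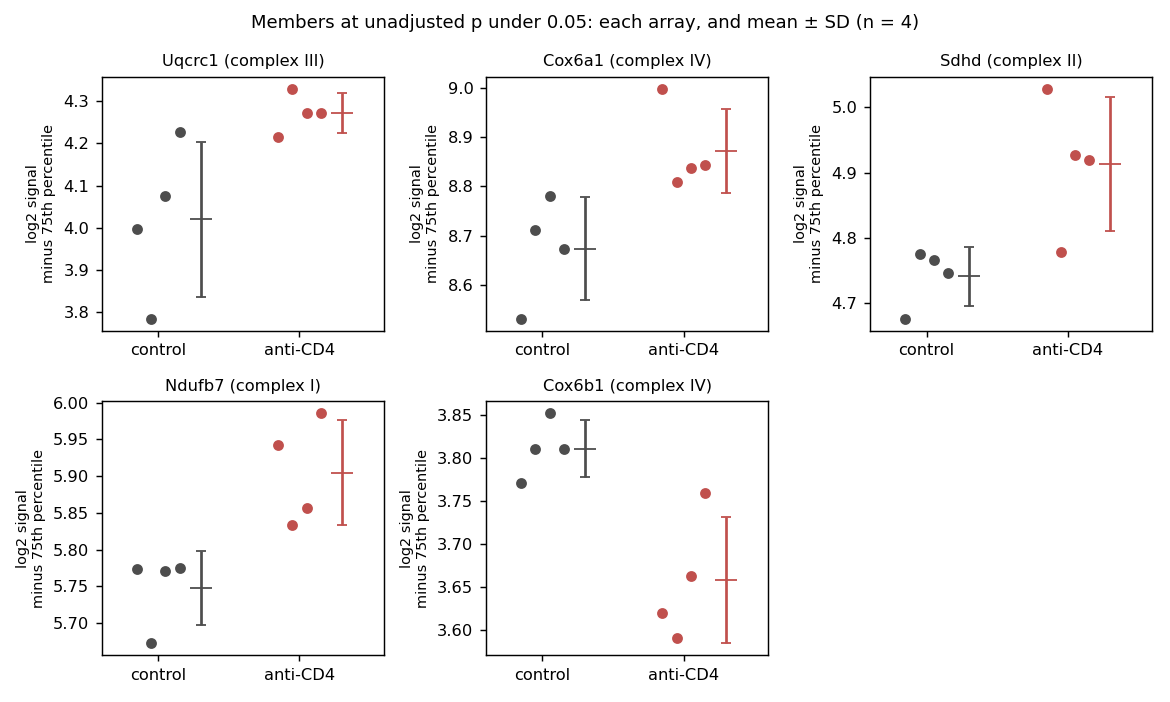
Level of 5 of the 6 members at an unadjusted p under 0.05 (y axis, log2 signal minus the array's 75th percentile; each panel has its own range and none starts at 0) on the 4 control (grey) and 4 anti-CD4 (red) arrays, with mean ± SD. The groups do not overlap for Cox6a1, Sdhd, Ndufb7 and Cox6b1, while for Uqcrc1 control replicate 4 lies above 1 anti-CD4 array.

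The position of the complexes also varied from array to array. For each gene the deviation from its own mean over the 8 arrays was taken, and the median of these over a complex gave its position on an array. Over all 84 members, the control arrays stood at -0.10, 0.01, 0.05 and 0.001 and the anti-CD4 arrays at 0.05, -0.06, -0.02 and 0.06. Control replicate 1 was the low array. It was the lowest of the 8 for 41 of 84 members, against 19.2% of all rows, and anti-CD4 replicate 1 was the highest for 27 members, against 15.8% of rows.

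Control replicate 1 had a position of -0.09 in complex I, -0.14 in complex II, -0.15 in complex III, -0.05 in complex IV and -0.10 in complex V. Without it, 34 of 84 members had positive differences, the median over members was -0.01, and the medians of complexes III, IV and V were -0.01, -0.01 and -0.01. That of complex II was 0.07, with 3 of 4 positive. The 807 other rows at or above the median level of the members had a position of -0.11 on the same array and a median difference of 0.04, so the low values there were shared with other bright rows. Of those rows, 8.92% stood at an unadjusted p under 0.05.

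**Figure D3:**
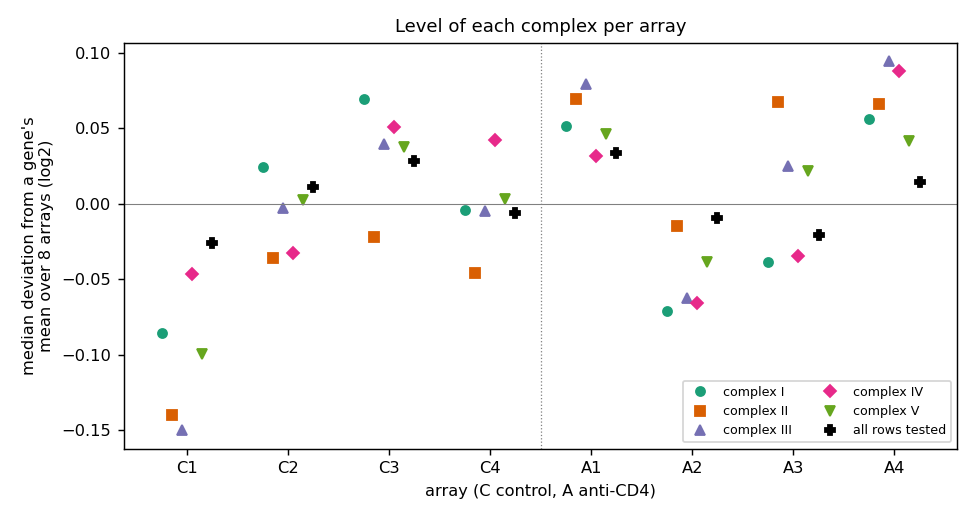
Median deviation of each complex from the mean of its genes over the 8 arrays (y axis, log2) on each control (C1 to C4) and anti-CD4 (A1 to A4) array, with all 23595 rows as crosses. All 5 complexes are below 0 on C1, complexes II and III the furthest at -0.14 and -0.15, and every complex is below 0 on A2 as well.

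The isoforms Cox8b and Cox6b2 stood apart by their spread. The rule for genes described with values did not take them, and they were chosen for description after their values were seen. Cox8b encodes the heart and skeletal muscle form of subunit VIII and Cox6b2 a form of subunit VIb best known from testis. Cox8b stood at 1.81, -2.21, -2.40 and 2.003 in controls and at -2.69, 0.88, 2.24 and 1.24 after anti-CD4. It was high on 2 control and 3 anti-CD4 arrays and low on the other 3, a 30.6-fold range of signal. Its SD within groups, 2.30, ranked 27 from the widest among 23595 rows. The difference between groups was 0.62 ± 1.365 (SE), less than that spread.

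Cox6b2 stood at 0.22, -1.10, -0.94 and 0.12 in controls and at -1.16, -0.27, 0.19 and -0.15 after anti-CD4. The same 3 arrays were low, over a 2.60-fold range, and its SD of 0.64 ranked 457. Cox7a1, with a narrower spread, was also lowest on these 3 arrays. It stood at 0.96 and 1.13 in control replicates 2 and 3 and at 1.08 in anti-CD4 replicate 1. On the other arrays it stood at 1.22 to 1.64. The tissue forms Cox6a2, Cox4i2 and Cox7b2 were lowest on other sets of arrays. The widespread partners of Cox8b and Cox6b2 did not share the pattern. Cox8a ranged from 8.01 to 8.26 and Cox6b1 from 3.59 to 3.85 over the 8 arrays.

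Ttr, the transthyretin gene that epithelial cells of the choroid plexus express at very high levels, followed the same arrays. It stood at 8.16, 2.72, -0.46 and 8.26 in controls and at 1.22, 7.60, 8.48 and 7.75 after anti-CD4. All 11 choroid plexus markers were measured. Their summed linear signal, in multiples of the array's 75th percentile, was 471, 34.5, 22.6 and 488 in controls and 27.7, 307, 610 and 328 after anti-CD4, lowest on the arrays where Cox8b and Cox6b2 were low. With the level of Ttr as a covariate, the difference of Cox8b was -0.30 ± 0.361 and that of Cox6b2 -0.17 ± 0.151 (SE), both of the opposite sign. The source of Cox8b and Cox6b2 transcripts was not tested. Because the arrays fall into 2 clusters in these genes, no correlation was computed.

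With the Ttr covariate, 9 of 84 members changed sign. Among the 5 members shown above at an unadjusted p under 0.05, Cox6a1 had a difference of 0.23, Uqcrc1 of 0.23, Sdhd of 0.19, Ndufb7 of 0.16 and Cox6b1 of -0.15. The median of complex IV went from 0.03 to -0.03, with 7 positive and 10 negative. Of the 6 tissue-restricted cytochrome oxidase isoforms, 5 were positive without the covariate and 1 with it.

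**Figure D4:**
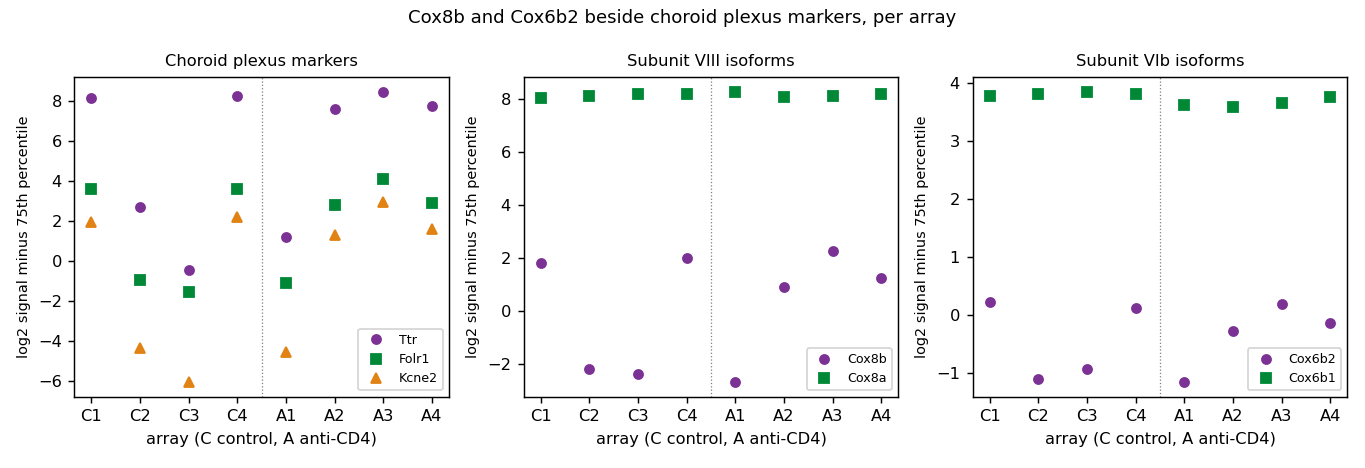
Level per array (y axis, log2 signal minus the array's 75th percentile; C1 to C4 control, A1 to A4 anti-CD4) of the choroid plexus markers Ttr, Folr1 and Kcne2 (left), of Cox8b and Cox8a (middle) and of Cox6b2 and Cox6b1 (right). Cox8b and Cox6b2 are low on C2, C3 and A1, as are the 3 markers, while Cox8a and Cox6b1 lie nearly level.

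Promoter windows for these isoform pairs are printed because the pairs differ in how they varied across arrays. Each runs from 250 bases before to 50 bases after the transcription start of the RefSeq annotation (GRCm38.p6), 5′ to 3′ on the gene's strand. Capitals mark the NRF1 site (GCATGC with GC before and after it), the ETS core TTCCGG, the CAAT box CCAAT and the TATA box TATAAA, each on either strand. NRF1 and the ETS factor NRF2 (GABP) are transcription factors known for the control of respiratory chain genes.
Cox8a: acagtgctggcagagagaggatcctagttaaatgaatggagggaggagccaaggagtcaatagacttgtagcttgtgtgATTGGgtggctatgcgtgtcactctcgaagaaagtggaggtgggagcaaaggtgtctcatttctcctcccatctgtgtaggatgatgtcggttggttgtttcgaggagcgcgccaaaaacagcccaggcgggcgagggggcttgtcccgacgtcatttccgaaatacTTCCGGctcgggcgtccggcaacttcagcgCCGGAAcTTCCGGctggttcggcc
Cox8b: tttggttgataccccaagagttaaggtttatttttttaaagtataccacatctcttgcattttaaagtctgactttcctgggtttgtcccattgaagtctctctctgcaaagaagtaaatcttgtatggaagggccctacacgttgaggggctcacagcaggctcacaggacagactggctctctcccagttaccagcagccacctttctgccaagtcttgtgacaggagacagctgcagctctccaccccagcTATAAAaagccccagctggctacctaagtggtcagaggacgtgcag
Cox6b1: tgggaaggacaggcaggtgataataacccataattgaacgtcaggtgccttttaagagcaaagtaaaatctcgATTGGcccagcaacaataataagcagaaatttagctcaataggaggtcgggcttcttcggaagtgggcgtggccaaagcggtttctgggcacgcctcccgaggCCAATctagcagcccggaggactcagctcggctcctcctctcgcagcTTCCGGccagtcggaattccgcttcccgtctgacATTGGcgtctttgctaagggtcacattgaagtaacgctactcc
Cox6b2: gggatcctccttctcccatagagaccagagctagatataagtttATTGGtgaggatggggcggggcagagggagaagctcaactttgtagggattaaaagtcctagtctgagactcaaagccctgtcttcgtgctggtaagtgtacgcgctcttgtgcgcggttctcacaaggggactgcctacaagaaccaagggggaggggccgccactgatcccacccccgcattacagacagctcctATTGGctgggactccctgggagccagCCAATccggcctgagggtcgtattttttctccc

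Cox8a (chr19:7217567-7217866, minus strand) held 3 ETS cores and 1 CAAT box in this window. Cox8b (chr7:140900397-140900696, minus strand) held no NRF1, ETS or CAAT match and 1 TATA box. Cox6b1 (chr7:30626065-30626364, minus strand) held 1 ETS core and 3 CAAT boxes. Cox6b2 (chr7:4753045-4753344, minus strand) held 3 CAAT boxes and none of the other 3 motifs. The windows of Cox6a1 and Uqcrc1, also picked for printing, hold the complete NRF1 site. Those of Ndufb7, Sdhd and Cox6b1, like them at an unadjusted p under 0.05, do not. A relation of the site to the differences was not tested.
Cox6a1: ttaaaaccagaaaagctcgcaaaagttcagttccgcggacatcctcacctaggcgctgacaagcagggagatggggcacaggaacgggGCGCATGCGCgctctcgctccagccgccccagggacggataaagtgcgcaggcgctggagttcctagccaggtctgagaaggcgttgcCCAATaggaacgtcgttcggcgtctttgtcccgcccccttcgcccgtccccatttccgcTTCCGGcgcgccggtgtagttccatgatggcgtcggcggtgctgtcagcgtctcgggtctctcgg
Uqcrc1: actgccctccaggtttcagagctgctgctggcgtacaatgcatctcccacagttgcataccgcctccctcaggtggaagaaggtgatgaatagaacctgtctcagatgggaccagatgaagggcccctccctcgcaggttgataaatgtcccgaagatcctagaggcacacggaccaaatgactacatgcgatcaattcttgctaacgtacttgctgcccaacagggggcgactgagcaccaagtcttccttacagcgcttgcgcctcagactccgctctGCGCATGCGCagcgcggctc

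Cox6a1 (chr5:115348909-115349208, minus strand) held 1 NRF1 site, 1 ETS core and 1 CAAT box, and Uqcrc1 (chr9:108936398-108936697, plus strand) 1 NRF1 site. A match is a run of letters and does not show that a factor binds. Of the members, 69 genes had an entry, on 75 windows. The complete NRF1 site was in 6.67% of these windows, against 0.971% of 32851 promoters of all genes and 1.72% of those of the genes tested here. Its inner core GCATGC was in 17.3%, against 7.93% and 9.25%. The 5 genes with the complete site were Atp5g2, Atp5k, Cox6a1, Ndufa11 and Uqcrc1, with differences of 0.10, 0.02, 0.20, -0.06 and 0.25.

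The ETS core TTCCGG was in 36% of member windows, against 14.9% of all and 23.5% of tested genes' windows, and the longer CCGGAAG, which contains that core on the other strand, in 21.3%, against 8.86% and 14.8%. The YY1 motif ATGGCGGC was in 12% of member windows, against 2.24% and 4.09%, in 7 genes of which 6 belong to complex I by name. CCAAT was in 42.7%, against 37.4% and 37.2%. TATAAA was in 8 of the 75 windows, against 13.6% of all and 7.92% of tested genes' windows, and the Sp1 motif GGGCGG in 38.7%, against 35.7% and 58.4%. All were searched on both strands, and the median GC content was 57.3% in member windows and 52.7% in all.

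Probes of the same gene did not always give the same sign. Of the 28 members with several tested probes, 13 had differences of both signs, among them Atp5g1, Atp5h, Atp5k, Cox7c, Cox8a, Ndufa3, Ndufb11, Ndufb2, Ndufb4, Ndufv3, Uqcr10 and Uqcrb. The median spread between probes of a gene, the largest difference minus the smallest, was 0.097. It is not the same measure as the SD between arrays. The widest was 0.44 in Ndufb11, from -0.35 on a probe of chrX to 0.09 on a probe placed on chr5. On the former, control replicate 1 stood at -1.07 and the other controls at -2.14 to -1.94. Of all 123 probes tested, 9 stood at an unadjusted p under 0.05, 7 higher and 2 lower, and 0 passed the adjusted threshold. The share at that level among all 29403 tested probes is not given here. Among the 23595 rows it was 13.0%. The 3 that were not the brightest of their gene were those of Atp5g2 (0.23), Ndufv3 (0.21) and Atp5c1 (0.20). With the dimmest tested probe of each gene in place of the brightest, 7 members stood at that level, 6 higher and 1 lower.

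Some brightest probes lie away from the gene they are named for, in the coordinates of the files. That of Atp5j2 lies at mm9 chr9:21897298-21897357, while its second probe lies at chr5:145948011-145948070 and gave 0.09 in place of 0.16. That of Atp5l lies on chrX:35750466-35750525 and gave 0.05, and its 5 probes near chr9:44721315-44721483 gave 0.06 to 0.11. Near-identical copies of these genes cannot be separated by such probes, so the values of Atp5j2 and Atp5l are uncertain.

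**Figure D5:**
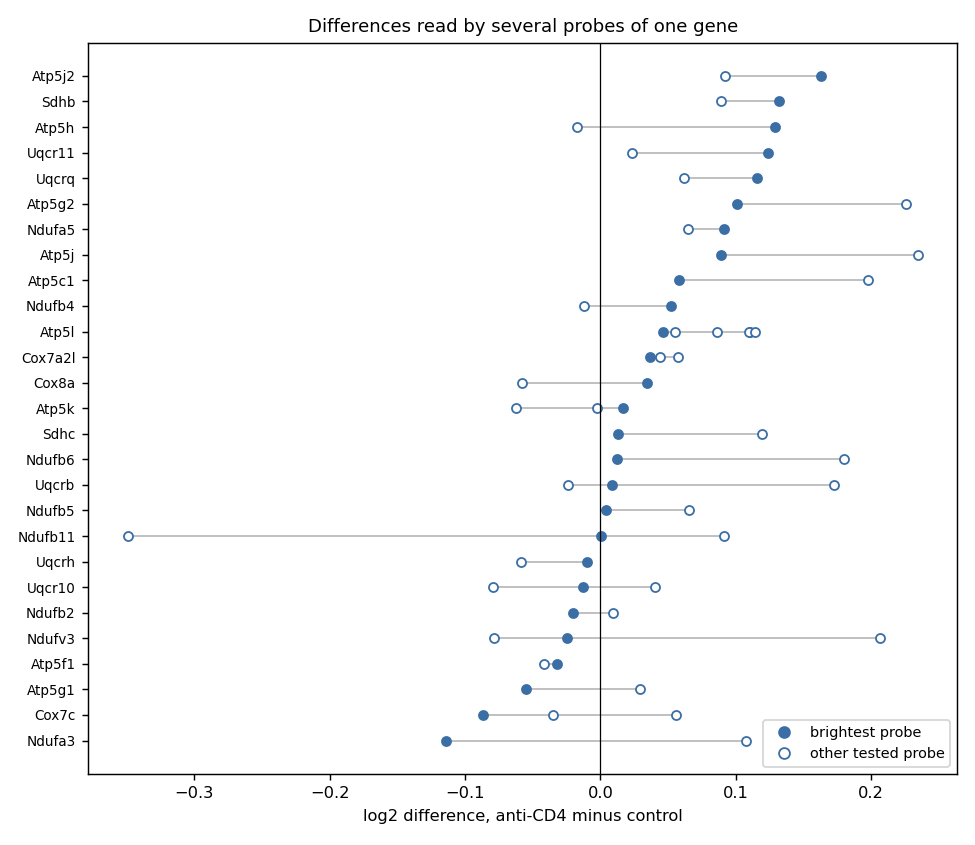
Differences of all tested probes (x axis, log2, anti-CD4 minus control) for 27 of the 28 members with more than 1 tested probe, the brightest probe filled and the others open, joined by a line per gene. The lines cross 0 in 12 genes, and the longest, that of Ndufb11, spans 0.44. Its low end is a probe on which control replicate 1 stood apart from the other controls, and its high end a probe placed on chr5.

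Genes of the same pathways outside the name rule were described by the same counts. Of 13 further respiratory chain and coenzyme Q genes measured, 1 was higher at an unadjusted p under 0.05 (Coq7, a hydroxylase of coenzyme Q synthesis, 0.16 ± 0.058) and 0 were lower, with a median of 0.03. That was 7.69% of them, against 13.0% of all rows. Atp5mpl, a small ATP synthase subunit, differed by 0.21 ± 0.091. The electron carrier cytochrome c (Cycs) and cytochrome c1 of complex III (Cyc1) overlapped between groups, at 5.46 and 5.47 for Cycs and at 5.65 and 5.68 for Cyc1 (control and anti-CD4 means).

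Of 45 assembly factors, 2 were higher and 3 lower at that level (11.1% in all, against 13.0% of rows). They included Sdhaf4 (-0.24 ± 0.061), which helps to assemble succinate dehydrogenase, Ndufaf8 (0.27 ± 0.081), a complex I factor, and Cox19 (-0.15 ± 0.060), a copper-handling factor of cytochrome oxidase. None of the 15 regulators of mitochondrial biogenesis stood at that level. Ppargc1a, the coactivator PGC-1alpha, differed by 0.13 ± 0.070, Pprc1 by 0.17 ± 0.098 and Polrmt, the mitochondrial RNA polymerase, by -0.13 ± 0.061.

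None of 16 tricarboxylic acid cycle genes stood at an unadjusted p under 0.05, and their median difference was 0.02. The smallest p were those of Fh1 (0.10 ± 0.080), Idh3b (-0.08 ± 0.063) and Pdha1 (-0.07 ± 0.054). Of 17 glycolytic genes, 3 were higher and 1 lower at that level (23.5% in all, against 13.0% of rows). These were Hk1, which opens the pathway (0.22 ± 0.075), Gpi1 (0.18 ± 0.065) and Ldhb, a lactate dehydrogenase (0.20 ± 0.074), and Tpi1 on the lower side. In the authors' deposited table, the glycolytic counts were 3 higher and 3 lower, where 16.4% of all rows stood at that level. Of 21 genes of mitochondrial import and the outer membrane, 1 was higher and 2 were lower (14.3% in all, against 13.0% of rows). They were Phb2 (0.12 ± 0.053) against Phb (-0.17 ± 0.067) and the import chaperone Timm9 (-0.14 ± 0.060). No gene of any of these lists passed the adjusted threshold in limma.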

How the data were processed

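Total RNA of 8 hippocampal samples was measured on Agilent single-colour arrays of design 028005. The deposited spot files hold an intensity, the processed signal, made by Feature Extraction 10.7.3.1 with background subtraction and detrending, per the file headers. The authors' deposited table, used as an alternative, holds log2 values of the same probes with columns close to 1 distribution. Its processing is named only as limma, per the submitters' processing notes; the rest is not given in the sources used here.

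Control spots and outlier-flagged spots were left out (unless every spot of a probe was flagged), spots of a probe were averaged, and log2 of the signal minus the array's 75th percentile was used. Probes well above background on at least 4 of 8 arrays were tested (29403 probes), and genes were represented by their brightest probe. Names came from a GRCm38.p6 symbol table by accession (27509 probes), symbol (3537) or synonym (402), or from the files (1808), and 22425 probes had none. Members were matched on the names in the files. Coordinates are on mm9 as in the files; exons were not annotated.

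The comparison used limma 3.58.1 under R 4.3.3 (lmFit, then eBayes). Tests were two-sided, and p-values were Benjamini-Hochberg adjusted across 23595 rows. The test was checked on simulated arrays. Intervals cover the spread between arrays, whose number limits the precision. Lists are described by counts and medians, with no set test. Replicate numbers, which equal the slide column, were not used to pair the samples in the main fit. Deviations of same-numbered arrays correlated at -0.454, -0.288, -0.307 and 0.305, and those of different-numbered arrays at -0.415 to 0.453. With so few arrays per group, these values do not decide whether equal numbers mark a pair. Alternatives covered scaling, background correction, filter, probe choice, naming, replicate block, trend and robust variances, weighted arrays, Ttr as a covariate, the authors' table, each array left out and a threshold of 0.1.

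The members, the lists and the naming rule were chosen with earlier results of these data known. Named were the members with the smallest p in each complex (up to 6, 2, 3, 5 and 5 for complexes I to V), a set of core subunits and isoforms, every member with probes of opposite sign, up to 3 genes per pathway list with the smallest p, and Ppargc1a, Cycs, Cyc1, Cd4 and Ttr. Other names were chosen after their values were seen. One member that the rule takes is counted but not reported here.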

Additional observations from a re-analysis of the deposited data

Results flagged for a closer look

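In 7 of 104 groups of 4 arrays examined (6.73%), the highest or lowest array lay apart from the other 3, its gap to the nearest exceeding Dixon's critical share of the group's range. Chance alone marks about 1 group in 20. In controls, replicate 1 was low for Ndufb11 (5.881, the others 6.144 to 6.168) and for Sdha (4.673, the others 4.819 to 4.840), and replicate 2 was low for Ndufb7 (5.672, the others 5.770 to 5.774). After anti-CD4, replicate 4 was high for Cox4i1 (7.572, the others 7.363 to 7.396) and for Cox5b (6.292, the others 6.120 to 6.145). Replicate 1 of the same group was high for Atp5g2 (6.456, the others 6.325 to 6.343). The median deviation of complex II was low in anti-CD4 replicate 2 (-0.015, the others 0.066 to 0.070).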

How the results depend on the processing

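No member passed an adjusted p of 0.05 under any setting, a threshold of 0.1 included. Over all rows the count was 0 by default, 2 with trend and robust variances, 2 in the authors' deposited table, and 0 to 11 with 1 array left out (11 without anti-CD4 replicate 3). Members at an unadjusted p under 0.05 numbered 10 with normexp (16.0% of all rows at that level), 1 without the filter on dim probes (6.87%), 10 with trend and robust variances (13.6%), 11 in the authors' deposited table (16.4%) and 1 to 5 with 1 array left out (1 without anti-CD4 replicate 1; 2 without control replicate 2, control replicate 4 or anti-CD4 replicate 3; 3 without anti-CD4 replicate 4). With 1 array left out, 9.26% to 15.8% of all rows stood at that level. With the replicate number as a block the count of members was 0 (9.37% of rows), and 0 rows passed the adjusted threshold. Members whose groups did not overlap numbered 11 with normexp, 14 in the authors' deposited table and 7 to 16 with 1 array left out (12 without control replicate 1 or 3, 16 without anti-CD4 replicate 2). The share of all rows without overlap under these settings is not given here, and groups with fewer arrays separate more readily. The median of complex IV was -0.0289 with the Ttr covariate and -0.0399 to 0.0591 with 1 array left out, the lowest without control replicate 2. Over the 20 settings, 0 to 17 members changed sign. The causes of these changes were not tested.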
